A study of Mus musculus with 6 samples.

Results

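A set of 5 genes of immunity and lipid transport was followed in mouse heart after a myocardial infarction: H2-Q7, Il2, Mzb1, Gsdmd and Apoe. Each was read by 1 mRNA probe printed in 10 spots on a 1-colour array, and the 5 probes were chosen by name from the 50 mRNA probes of an array that otherwise carries 14236 probes for circular RNA. The probes are A_51_P262079 for H2-Q7 (transcript accession NM_010394), A_51_P114222 for Il2 (NM_008366), A_51_P452153 for Mzb1 (NM_027222), A_51_P172231 for Gsdmd (NM_026960) and A_51_P171999 for Apoe (NM_009696). The 2 groups, of 3 arrays each, were hearts of mice given a sham operation (Sham) and hearts infarcted by ligation of the left anterior descending coronary artery (MI). All mice were wild-type males aged 10 weeks, per the labels, with 1 array per heart sample. The labels disagree on the interval after ligation, which the treatment protocol gives as 1 day and the source name of the MI samples as 4 weeks, so no time is given here. In both groups the RNA had first gone through RNase R, an enzyme that digests linear RNA and leaves most circular RNA, before random-primed labelling with Cy3. The values are therefore probe signals in RNA depleted of linear transcripts, not levels of mRNA in tissue. In whole-heart RNA, fewer cells of a type and less RNA per cell cannot be told apart.

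The genes act at different points of the response to injured tissue. H2-Q7 encodes a class Ib histocompatibility molecule of the Qa-2 family, which presents peptides at the cell surface. Il2 encodes interleukin 2, the growth factor that activated T cells secrete. Mzb1 encodes an endoplasmic reticulum chaperone of marginal zone B cells and plasma cells that helps antibody assembly and secretion. Gsdmd encodes gasdermin D, whose cleaved fragment opens pores in the plasma membrane during pyroptosis, the lytic cell death that follows inflammasome activation. Apoe encodes apolipoprotein E, which carries lipid between cells and is abundant in macrophages, though many other cells make it.

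The promoters of H2-Q7, the only one of the 5 genes that fell, and of Il2, one of those that rose, are shown for the elements that class I histocompatibility genes and the T cell cytokine gene are known for. The sequences are from RefSeq on GRCm38.p6, run 5′ to 3′ toward the start of transcription, and end at the outermost annotated start of the gene. The H2-Q7 stretch is chr17:35438905-35439139 on the plus strand and the Il2 stretch is chr3:37125955-37126204 on the minus strand. Capitals mark matches to the 6 motifs searched.
H2-Q7: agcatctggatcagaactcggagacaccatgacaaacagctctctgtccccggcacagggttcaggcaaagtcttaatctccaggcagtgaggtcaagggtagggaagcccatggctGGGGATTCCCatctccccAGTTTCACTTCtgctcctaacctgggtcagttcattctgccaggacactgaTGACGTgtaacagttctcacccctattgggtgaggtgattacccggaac
Il2: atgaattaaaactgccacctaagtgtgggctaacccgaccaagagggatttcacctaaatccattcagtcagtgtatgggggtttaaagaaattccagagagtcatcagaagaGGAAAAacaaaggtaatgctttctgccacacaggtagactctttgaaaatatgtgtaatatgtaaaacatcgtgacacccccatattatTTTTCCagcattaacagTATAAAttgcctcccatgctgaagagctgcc

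In H2-Q7 the capitals are, in order, the 10-base NF-kB consensus, the 11-base consensus of interferon regulatory factors, found on the other strand, and the core of a cAMP response element (TGACGT). They begin 118, 100 and 49 bases before the end of the printed stretch. The start in the table lies 15 bases inside the annotated gene, and those bases are left out. In Il2 they are the core bound by NFAT (GGAAAA) at 137 bases, the same core on the other strand at 48 bases and a TATA box (TATAAA) at 31 bases. The AP-1 motif TGANTCA had no match in either stretch. Both strands were searched, and the matches do not overlap, except that the NF-kB stretch matches its consensus on both strands. Over 32817 promoter windows of 250 bases, the NF-kB consensus was found in 3.90%, that of interferon regulatory factors in 0.274%, TGACGT in 6.46%, GGAAAA in 20.4%, TATAAA in 12.4% and TGANTCA in 6.75%. The motifs were picked with the sequences in view, and a match is a description of the letters, not a measured site. A link between these motifs and the changes in probe signal was not tested. For Apoe the table lists 3 starts, which lie inside longer annotated transcripts of the gene, so none is printed. Mzb1 and Gsdmd have no entry.

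The signal of each array was set relative to the 75th percentile of its own probes, which was at an intensity of 68.0, 124 and 103 on Sham 1, Sham 2 and Sham 3 and of 108.5, 153 and 129 on MI 1, MI 2 and MI 3. All 60 spots of each of the 5 probes (10 spots on 6 arrays) were well above background, and 0 were saturated. Of the 300 spots in all, 8 were flagged as outliers and left out. Sham 2 was scanned apart from the other 5 arrays, so each result is also given for those 5 where it matters. Nothing in the labels says whether the samples of a group come from separate animals, so the p-values measure the spread between these samples.

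In MI, H2-Q7 fell and Il2, Mzb1 and Apoe rose, and Gsdmd did not pass the test. Of the 5 probes, 3 were called higher and 1 lower at an adjusted p under 0.05, in a fit over 11554 probes in which 50.5% were called, 25.7% higher and 24.8% lower. Among the 36 other mRNA probes tested, 30.6% were called higher and 13.9% lower. The 4 of 5 genes called are to be read beside a background of 50.5%. The sham and MI values did not overlap for the same 4 genes, where over all tested probes 31.4% were apart with MI higher and 29.6% with MI lower.

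**Figure D1:**
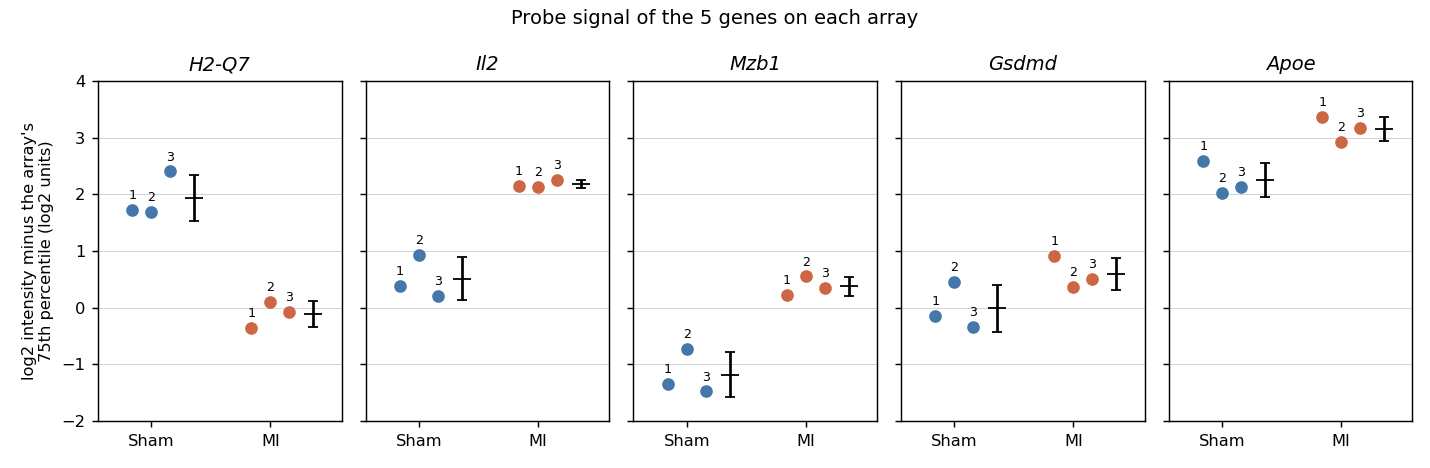
Log2 signal of each gene's probe minus the 75th percentile of its array, 1 point per array with the replicate number above it, and the mean ± SD of each group in black. The groups are apart for H2-Q7 (MI lower) and for Il2, Mzb1 and Apoe (MI higher), while for Gsdmd the Sham 2 value of 0.45 lies above the MI 2 value of 0.36.

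The class Ib gene H2-Q7 had an unscaled intensity of 224 on Sham 1, 401 on Sham 2 and 547 on Sham 3 and, after infarction, of 84.8 on MI 1, 165 on MI 2 and 122 on MI 3. Every MI array lay below every sham array before any scaling. Relative to the 75th percentile the log2 signal was 1.72, 1.70 and 2.41 in sham and -0.36, 0.11 and -0.08 in MI, with a gap of 1.59 between the nearest arrays of the groups. The means were 1.94 ± 0.40 in sham and -0.11 ± 0.23 in MI (SD, n = 3). On the log2 scale H2-Q7 fell by 2.05, with an SE of 0.28 and an adjusted p of 0.00277, or 4.14-fold lower with a 95% interval of 2.62 to 6.54. Among the 41 tested mRNA probes only Ppara, the nuclear receptor of fatty acid oxidation, fell further. Genes of the Q region are close copies of one another. The probe's sequence was not used here, so a part of this signal that comes from a neighbouring copy cannot be told apart.

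The T cell growth factor gene Il2 had an unscaled intensity of 88.8 on Sham 1, 237 on Sham 2 and 119.6 on Sham 3, and of 479 on MI 1, 672 on MI 2 and 616.5 on MI 3. Its log2 signal was 0.38, 0.94 and 0.21 on the sham arrays and 2.14, 2.14 and 2.25 on the MI arrays. The 3 MI arrays were nearly level, with an SD of 0.07 beside 0.38 in sham, and the groups lay 1.20 apart at their nearest arrays. Il2 rose by 1.67 (SE 0.26, adjusted p = 0.00308), 3.18-fold with a 95% interval of 2.09 to 4.84. On this scale it had the second highest fold change of the 41 tested mRNA probes. Of the 3 spots of this probe that were flagged, 2 were on MI 1, with intensities of 245 and 327 against 452 to 506 for the other 8 spots. With all flagged spots of all probes kept, the log2 fold change was 1.59, in place of 1.67.

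The spots of the antibody chaperone gene Mzb1 were 3.65, 7.15 and 4.64 times their local background in sham and 8.66, 16.8 and 14.3 times in MI. Its unscaled intensity was 26.8, 74.7 and 37.0 on the sham arrays and 126.5, 224 and 165 on the MI arrays. The log2 signal was -1.34, -0.73 and -1.48 in sham and 0.22, 0.55 and 0.35 in MI, with no overlap and a gap of 0.95. Mzb1 rose by 1.56 (SE 0.27, adjusted p = 0.00398), 2.95-fold with a 95% interval of 1.89 to 4.59. The size of this rise depended on the background treatment. It was 1.14 with no background correction and 0.86 under normexp correction with an offset of 50, a method that models background and signal together and adds a constant, and the call held in both.

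Gsdmd, the pore former of pyroptosis, had an unscaled intensity of 61.6 on Sham 1, 169 on Sham 2 and 81.3 on Sham 3, against 204, 196 and 183 on the MI arrays. The 3 MI arrays were close to each other and above all sham arrays, of which Sham 2 stood apart from the others. After scaling the groups overlapped, with sham arrays at -0.14, 0.45 and -0.35 and MI arrays at 0.91, 0.36 and 0.51, and in 8 of the 9 pairs of arrays MI was higher. The log2 fold change was 0.60 (SE 0.29, adjusted p = 0.121), with a 95% interval from -0.08 to 1.29 that holds both no change and a 2.44-fold rise. The call depended on 1 array. Without Sham 2, which leaves the 5 arrays scanned together, it was 0.84 (SE 0.24, adjusted p = 0.0184). Calls rose over the whole array in that fit, to 7923 of 11551 tested probes with 4222 higher, from 5838 of 11554 with 2974 higher.

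The lipid carrier gene Apoe had an unscaled intensity of 409 on Sham 1, 504 on Sham 2 and 453 on Sham 3, against 1116, 1166 and 1164.5 on the MI arrays. Before scaling the MI arrays differed by an SD of 0.04 on the log2 scale and the sham arrays by 0.15. The highest single sham spot was at 559 and the lowest MI spot at 982, so no spot of one group reached the other before scaling. Unflagged spots were also apart for Il2 (at most 254 in sham, at least 452 in MI) and Mzb1 (86.0 and 107.6). Those of H2-Q7 overlapped. After scaling the log2 signal was 2.59, 2.03 and 2.13 in sham and 3.36, 2.93 and 3.17 in MI, with a gap of 0.35 between the groups. Apoe rose by 0.91 (SE 0.26, adjusted p = 0.0212), 1.88-fold with a 95% interval of 1.24 to 2.84. This call depended on the scaling and on single arrays. It was 0.36 under quantile normalization (adjusted p = 0.260), 0.65 with the percentile of only those probes detected above background on each of the 6 arrays (adjusted p = 0.0639), and it did not pass without Sham 3, MI 1 or MI 3, at 0.85, 0.80 and 0.90.

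**Figure D2:**
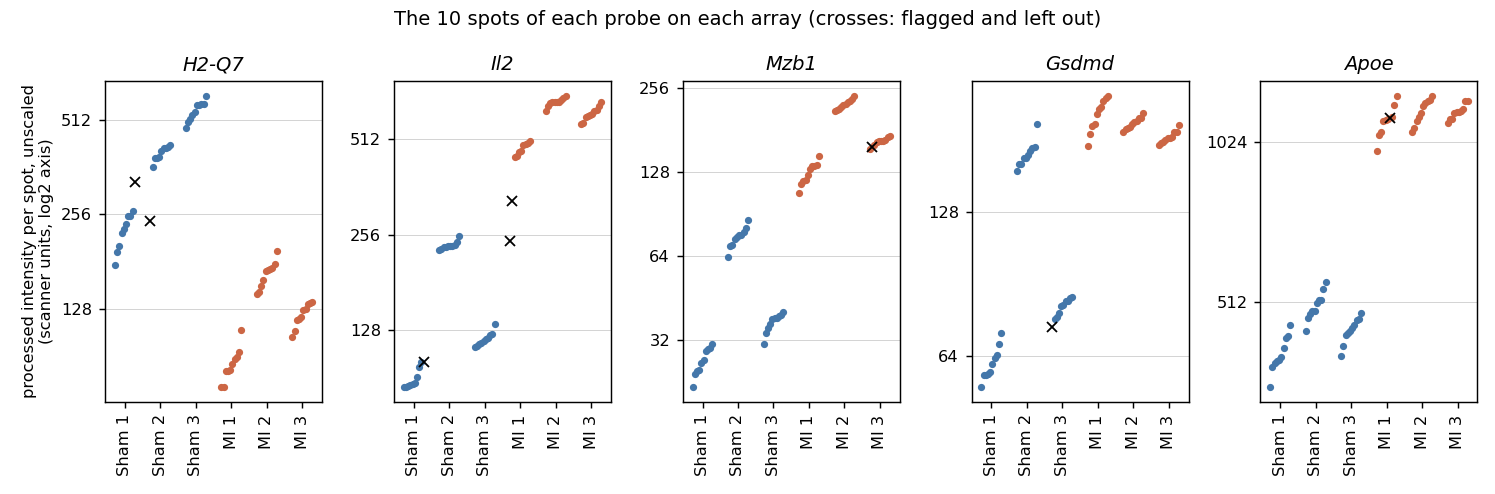
Processed intensity of the 10 spots of each probe on each array before scaling, on a log2 axis that differs between genes, with the spots of an array drawn from lowest to highest and flagged spots as crosses. The unflagged sham and MI spots of Apoe are apart, at no more than 559 and no less than 982, as are those of Il2 and Mzb1. Those of Gsdmd overlap between Sham 2 and the MI arrays, and those of H2-Q7 between Sham 1 and MI 2.

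The 10 spots of a probe are repeated readings of 1 labelled RNA and not replicates. Their SD within an array, on the log2 scale, had a median over the 6 arrays of 0.14 for H2-Q7, 0.07 for Il2, 0.12 for Mzb1, 0.07 for Gsdmd and 0.08 for Apoe. The SD between sham arrays after scaling, from 0.30 for Apoe to 0.41 for Gsdmd, was larger for every one of the 5 genes. The SD between MI arrays after scaling was also larger for H2-Q7, Mzb1, Gsdmd and Apoe, while for Il2 both were 0.07. Before scaling, the SD between MI arrays was 0.04 for Apoe, below that of its spots, and 0.08 for Gsdmd, close to that of its spots. It was larger than that of the spots for H2-Q7 (0.48), Mzb1 (0.41) and Il2 (0.25). The SD of single spots is not the error of an array's value, which is a mean over spots. The SE of that mean on the MI arrays was 0.014 to 0.023 for Il2, 0.013 to 0.037 for Gsdmd and 0.015 to 0.034 for Apoe. A spread near the spot SD therefore does not show that arrays differ by no more than spot noise.

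The 5 genes are next set against the other mRNA probes, of which 11 were called higher and 5 lower. The 36 other tested mRNA probes had a median log2 fold change of 0.56 (quartiles -0.15 and 1.07), with 26 above 0 and 10 below. The median over all 11554 tested probes was 0.10. On this scale Gsdmd, at 0.60, lay next to the median of the class and Apoe, at 0.91, was 0.35 above it. Il2 was 1.11 above it, Mzb1 1.00 above it and H2-Q7 was at -2.61 from it.

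**Figure D3:**
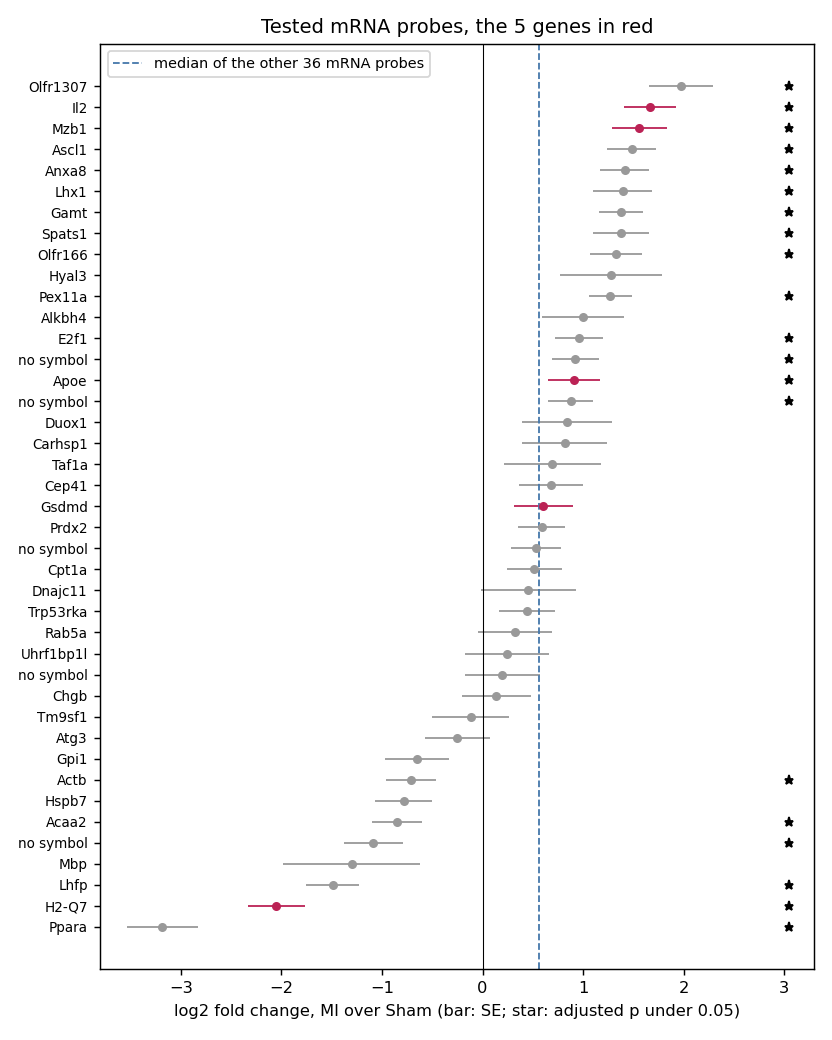
Log2 fold change of MI over Sham with its SE for the 41 tested mRNA probes in order of size, the 5 genes in red, a dashed line at 0.56 for the median of the other 36 and a star for an adjusted p under 0.05. Il2 and Mzb1 stand near the top, H2-Q7 is second from the bottom, and Gsdmd sits at the dashed line.

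With each array centred on the median of those 36 probes, a scaling chosen after the data were seen, H2-Q7 fell by 2.60 (SE 0.34, adjusted p = 0.00424). Il2 rose by 1.12 (SE 0.24, adjusted p = 0.0107) and Mzb1 by 1.01 (SE 0.24, adjusted p = 0.0148). Apoe was at 0.36 (SE 0.34, adjusted p = 0.423) and Gsdmd at 0.05 (SE 0.27, adjusted p = 0.890). Measured against the other mRNA probes, then, H2-Q7, Il2 and Mzb1 passed the test and Apoe and Gsdmd did not. These calls are to be read beside 4924 of all 11554 tested probes called under this scaling, 1071 higher and 3853 lower. Probes named as controls also differed between the groups, with medians of -1.64 over the 14 circRNA control probes and 0.80 over the 18 DCP probes, and their part in these results was not tested.

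Differences between 2 probes within an array do not depend on a constant subtracted from that array, and show whether 2 genes changed by unequal amounts. Quantile normalization subtracts no such constant, and the differences were not computed under it. Of the 10 pairs of the 5 genes, 6 had no overlap between sham and MI, where 53.4% of all 820 pairs of tested mRNA probes had none. With 3 arrays against 3 the smallest p of the exact permutation test, two-sided, is 0.1, which Benjamini-Hochberg adjustment over the 10 pairs takes to 0.167, so no pair can pass. The 4 pairs with H2-Q7 were apart in the same direction. For Il2, Mzb1 and Apoe this was fixed in advance, since their MI values all lay above sham and those of H2-Q7 all below. Those pairs restate the single-gene results, and all 4 share H2-Q7. Il2 minus H2-Q7 was -1.43 ± 0.72 on the sham arrays and 2.29 ± 0.24 on the MI arrays (SD, n = 3), a shift of 3.72 (exact permutation p = 0.1). Mzb1 minus H2-Q7 shifted by 3.61, Apoe minus H2-Q7 by 2.96 and Gsdmd minus H2-Q7 by 2.65, each at the smallest p.

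Among the 4 genes with a positive fold change, Il2 minus Gsdmd shifted from 0.52 ± 0.04 to 1.59 ± 0.31 (SD, n = 3), by 1.06, with no overlap. Mzb1 minus Gsdmd shifted by 0.95, also with no overlap, but under normexp correction with an offset of 50 the shift was 0.46 and the groups overlapped (exact permutation p = 0.2). The groups overlapped for Il2 minus Mzb1 (0.11, exact permutation p = 0.4), Il2 minus Apoe (0.76, p = 0.2), Mzb1 minus Apoe (0.65, p = 0.3) and Apoe minus Gsdmd (0.30, p = 0.7). Some of these values depended on the background treatment or on 1 array. Il2 minus Mzb1 was 0.58 under normexp with that offset and 0.43 with no background correction, with the groups apart in both (exact permutation p = 0.1). Apoe minus Gsdmd was 0.55 under normexp with that offset, also with the groups apart. Il2 minus Apoe was apart without Sham 2 (1.08) or MI 1 (0.88), Mzb1 minus Apoe without Sham 2 (0.99) and Il2 minus Mzb1 without MI 2 (0.22). With an array left out, overlapping groups can come apart, but groups that are apart cannot come to overlap. Mzb1 minus Apoe was -0.088 under normexp correction with an offset of 50, and Apoe minus Gsdmd was -0.040 without Sham 2.

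**Figure D4:**
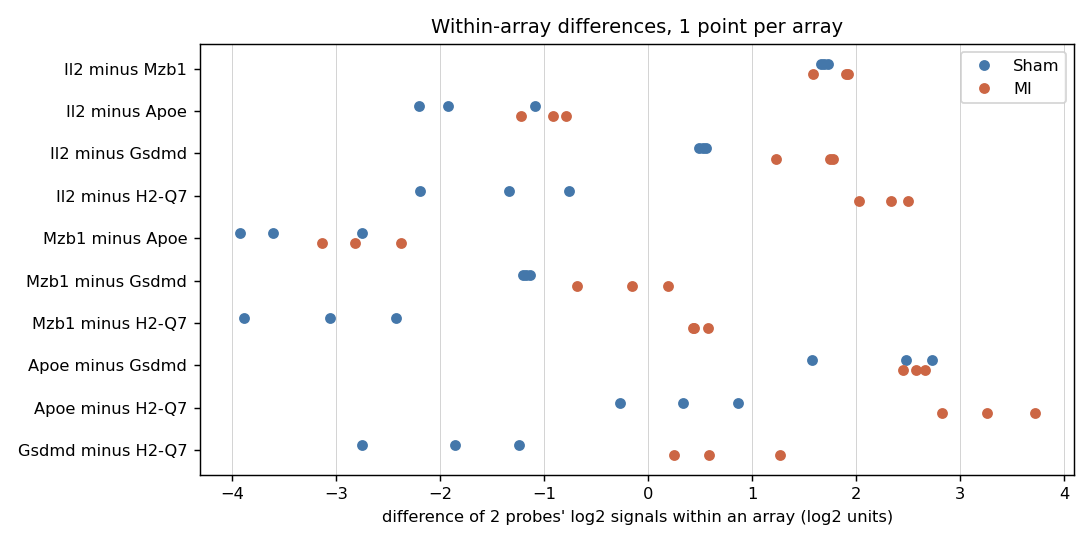
Difference between the log2 signals of 2 probes within an array for the 10 pairs of genes, 1 point per array, sham in blue and MI in orange. The groups are apart in the 4 pairs with H2-Q7 and in Il2 minus Gsdmd and Mzb1 minus Gsdmd, and the sham points of Il2 minus Mzb1, Il2 minus Gsdmd and Mzb1 minus Gsdmd nearly coincide.

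The profiles over the 6 arrays were compared by the root mean square difference of values centred on each probe's mean, over the 35 other tested mRNA probes with a gene symbol. Nearest to H2-Q7 was Lhfp, which encodes a membrane protein, at 0.33 on the log2 scale with a fold change of -1.49, followed at 0.67 by Acaa2, a thiolase of mitochondrial fatty acid oxidation. Nearest to Il2 was Mzb1, at 0.12, and then Anxa8, a calcium-dependent phospholipid binding protein, at 0.19. Nearest to Mzb1 were Lhx1, a homeobox factor, at 0.12 and Il2, also at 0.12. Gsdmd was nearest to Cpt1a, which loads fatty acids for mitochondrial import, at 0.20 and to Prdx2, a peroxidase, at 0.21. Apoe was nearest to E2f1, a cell cycle transcription factor, at 0.17 and to Pex11a, a peroxisome division factor, at 0.25. Only Il2 and Mzb1 had another of the 5 among their nearest 2, and H2-Q7 ranked 33rd or 34th of 35 for each of the other 4 genes.

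None of the other genes of these pathways could be followed by name. Of 48 genes in 5 lists (class I peptide presentation, interleukin 2 signalling, antibody assembly, pyroptosis, and lipid transport of macrophages), 0 had a named mRNA probe. Of 42 markers in 8 lists of cell types, macrophages, neutrophils, T cells, B cells, dendritic cells, cardiomyocytes, fibroblasts and endothelium, 0 had one either. The label of the samples, heart, and the presence of macrophages or lymphocytes were therefore not checked on defining markers, and the cell makeup of the hearts was not assessed. The circRNA probes carry no gene name in the files, so circular RNAs of these genes were not looked up.

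Over 22 alternative settings, of which leaving out Sham 2 and keeping only the arrays of its companions' scan are the same fit, the directions of the 5 genes were the same, and H2-Q7, Il2 and Mzb1 passed the threshold in every one. Between 4178 and 7923 of all tested probes were called in these settings. H2-Q7 ranged from -2.60 to -1.58, Il2 from 1.12 to 2.10 and Mzb1 from 0.86 to 1.99. Apoe ranged from 0.36 to 1.34 and passed in 16 of the 22. Gsdmd ranged from 0.05 to 1.04 and passed in 3, which are median centring and that fit counted under both names.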

How the data were processed

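The scanner files of 6 arrays were used. Per the file headers, the authors took the intensity of each spot from Agilent Feature Extraction (version 11.0.1.1), which subtracts background and detrends within an array and leaves arrays unscaled. Per the labels' protocols, RNA was treated with RNase R and labelled with Cy3. The deposited series table of log2 values, whose normalization is not given in the sources used here, holds 14225 probes and none of the 5, so it gave no value for them. The files have no mean spot signal, so the raw alternatives used the median signal.

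Flagged spots were left out, log2 processed intensity was averaged over spots, and the 75th percentile over the 14330 probes not marked as controls was subtracted from each array. Probes well above background on at least 3 arrays (over 50% of spots) were tested with limma 3.58.1 (R 4.3.3; lmFit, eBayes, two-sided, Benjamini-Hochberg over 11554 probes, threshold 0.05). Adjusted p-values are from limma. Exact permutation tests used scipy 1.17.1 and figures matplotlib 3.10.9. The fit was also run on simulated data with few changed probes and independent noise. That run gives no error rate for data in which 50.5% of probes are called. Accessions were named through a RefSeq table of GRCm38.p6, which named 44 of the 50 mRNA probes. The array design was built on mm9. Depth is not defined for arrays, and their number limits the precision.

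The named genes are the 5 and, for each, the 2 tested mRNA probes with the most similar profile. The members, lists and tests were chosen with earlier results of these data known. Replicate numbers 1, 2 and 3 showed correlations of deviations of -0.09, 0.06 and 0.14 between sham and MI and were not treated as pairs. Alternatives covered scaling, background, filter, spots, prior variance, scan, replicate block and each array left out.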

Additional observations from a re-analysis of the deposited data

How the results depend on the processing

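The calls of H2-Q7, Il2 and Mzb1 held in all 22 alternatives, and no direction of the 5 genes changed. For Apoe the call was lost under quantile normalization (0.36), with the percentile of probes detected on each array (0.65), and when centred on the other mRNA probes (0.36), and without single arrays the fold change ranged from 0.80 to 1.08, with adjusted p from 0.0233 to 0.0734. Gsdmd passed under median centring (0.91, adjusted p = 0.0393) and within scan 1 (0.84), and without single arrays it ranged from 0.44 to 0.84. The cause was not tested. Of all tested probes, 3953 were called higher under median centring and 4222 within scan 1, in place of 2974. Without single arrays, H2-Q7 ranged from -2.17 to -1.82, Il2 from 1.52 to 1.88 and Mzb1 from 1.41 to 1.79, and 2 to 4 genes were called higher. Over all tested probes, 2000 to 4222 were called higher in the same fits. With the replicate number as a block, the fold changes of the 5 genes stayed the same, 0.91 for Apoe (adjusted p = 0.0332) and 0.60 for Gsdmd (adjusted p = 0.171), and no call changed. Under that block 5266 of all tested probes were called, in place of 5838, and the numbers share only a label. Of the differences within arrays, 2 changed sign in the settings run for them. These were Mzb1 minus Apoe under normexp with an offset of 50 (-0.088) and Apoe minus Gsdmd without Sham 2 (-0.040, with 0.54 the highest without a single array). Quantile normalization was not run for the pairs. Under it the fold change of Il2 (1.38) was below that of Mzb1 (1.65) and that of Apoe (0.36) below that of Gsdmd (0.54), the reverse of the order as reported. The number of pairs with no overlap ranged from 6 to 8 without single arrays and was 7 under normexp with an offset of 50 and with no background correction. Leaving out an array cannot take this number below the 6 of all arrays, so that range does not measure stability. The scalings moved the median fold change of all probes from 0.10 to 0.20 (quantile), 0.41 (median), 0.53 (none), -0.15 (percentile of probes detected on each array) and -0.45 (other mRNA probes).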

Other observations

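Across the 3 sham arrays, Il2, Mzb1 and Gsdmd kept nearly fixed differences from one another. Il2 minus Mzb1 was 1.73, 1.67 and 1.69 on Sham 1, Sham 2 and Sham 3, Il2 minus Gsdmd was 0.53, 0.49 and 0.56, and Mzb1 minus Gsdmd was -1.20, -1.18 and -1.13. The SDs of these 3 differences were 0.03, 0.04 and 0.03, while the scaled signal of each gene varied with an SD of 0.38 to 0.41 over the same arrays. The median sham SD over all 820 pairs of tested mRNA probes was 0.63, and 4 pairs were at or below the largest SD of these 3. That cut was taken from these 3 pairs, so they are among the 4 by construction. Each of the 3 differences also follows from the other 2. In MI the same differences had SDs of 0.19, 0.31 and 0.44, while in the other 7 pairs of the 5 genes the SD was larger in sham than in MI. The pairs were picked after their values were seen, the change in spread was not tested, and the 3 genes share Sham 2 as their highest sham array.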
